A study of Mus musculus with 4 samples.

Results

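The genes of interleukin-6 (IL-6) family signaling were examined in 4 mouse mammary tumor cell lines. Members were the rows of the deposited expression table that carried 1 of 10 chosen symbols, and all 10 were found among 38713 usable rows. They encode ligands (Il6, Lif, Il11 and Clcf1), receptor chains (Il6ra, Il6st, Lifr and Osmr), the transcription factor Stat3 and its feedback inhibitor Socs3. Both groups of lines were derived from tumors of C57BL/6 mice with the genotype Wap-Cre+/- Trp53 LoxP/LoxP, so the p53 gene was a target in controls too. The JNK_WT group (p53-/-, n = 2) had no further targeted gene. The JNK_KO group (p53-/- JNK-/-, n = 2) also carried Mapk8 LoxP/LoxP and Mapk9 LoxP/LoxP alleles, which encode JNK1 and JNK2. Wap drives Cre in milk-secreting mammary epithelium, so a cell that never expressed Wap keeps all of these genes. Each line was 1 untreated culture that had been passaged on plastic and gave 1 library, and the age of the tumor-bearing mice at harvest was not given in the labels. The labels do not say whether lines of the same genotype came from separate mice, so p-values measure only the spread between these lines.

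Cytokines of this family act through receptor complexes that share the chain gp130, encoded by Il6st. IL-6 and IL-11 bind a private receptor chain that then joins gp130, while LIF pairs gp130 with the LIF receptor, and oncostatin M pairs it with the oncostatin M receptor. The complexes activate JAK kinases, which phosphorylate STAT3, and STAT3 in turn induces Socs3, whose product binds gp130 and damps the signal. In the mammary gland LIF and STAT3 are known for starting involution, the cell death and remodeling that follow weaning.

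JNK phosphorylates cJUN, a subunit of the transcription factor AP1, and 250 bases before the annotated RefSeq starts (build GRCm38.p6) were therefore searched on both strands for TGANTCA, the AP1 motif, for TTCNNNGAA, the motif of STAT proteins, where N is any base, and for an NF-kB motif (GGG, any pair of bases, TTTCC). A total of 9 of the 10 genes, with 11 starts, had a sequence, and Clcf1 had none. The AP1 motif stood before 3 genes, all of them ligand genes, and before 7.82% of all 27025 genes with a sequence. The STAT motif stood before Socs3 alone, against 8.13% of all genes, and the NF-kB motif before Il6 alone, against 1.65%. The windows with a match are shown because they belong to the ligands and the feedback gene described next. They run 5′ to 3′ on the strand of the gene and end at the base before the start, with matches in capitals. In the Il6 window (chr5:30012864-30013113, plus strand) the AP1 match began 249 bases and the NF-kB match 44 bases before the start, without overlap. The Il11 window belongs to an inner start and lies within the longer GENCODE gene. The Socs3 window also lies within the longer GENCODE gene of Socs3. The AP1 match began 98 bases before the start in the window of Il11 (chr7:4778142-4778391, minus strand) and 228 bases before it in that of Lif (chr11:4257318-4257567, plus strand). The STAT match in the Socs3 window (chr11:117969367-117969616, minus strand) began 154 bases before the start. A match is a description of the letters and was not tested as a binding site.
Il6: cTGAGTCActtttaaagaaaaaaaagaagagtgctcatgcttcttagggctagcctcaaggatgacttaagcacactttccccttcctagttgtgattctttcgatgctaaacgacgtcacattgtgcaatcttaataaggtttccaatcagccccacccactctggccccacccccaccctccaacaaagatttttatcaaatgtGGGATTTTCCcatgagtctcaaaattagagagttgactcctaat
Il11: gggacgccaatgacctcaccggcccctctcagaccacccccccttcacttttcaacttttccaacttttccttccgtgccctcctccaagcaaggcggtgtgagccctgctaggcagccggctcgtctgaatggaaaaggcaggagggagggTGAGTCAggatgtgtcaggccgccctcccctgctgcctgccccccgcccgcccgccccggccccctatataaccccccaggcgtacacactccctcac
Lif: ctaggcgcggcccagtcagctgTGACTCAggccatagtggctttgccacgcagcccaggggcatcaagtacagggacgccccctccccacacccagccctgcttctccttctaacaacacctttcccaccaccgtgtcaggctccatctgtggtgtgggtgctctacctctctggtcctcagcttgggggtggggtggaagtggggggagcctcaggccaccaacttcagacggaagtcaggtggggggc
Socs3: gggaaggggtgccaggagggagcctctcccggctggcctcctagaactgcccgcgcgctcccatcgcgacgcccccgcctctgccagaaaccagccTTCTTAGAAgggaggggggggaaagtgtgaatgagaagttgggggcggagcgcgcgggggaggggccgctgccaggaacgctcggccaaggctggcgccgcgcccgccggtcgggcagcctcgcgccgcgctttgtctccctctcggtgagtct

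Levels are given in FPKM, fragment numbers scaled by exon length and by library size, so genes can be set side by side. Tested genes had an upper quartile between 33.2 and 34.3 FPKM in the 4 libraries. The text of the paper gives an average read number per sample. The depth of each single library was read only in relation, from the steps of low values. It ran from 1 in JNK_KO replicate 1 to 1.40 in JNK_KO replicate 3. As a check of the labels, Mapk8 was at 23.9 and 19.1 FPKM in JNK_WT and 4.30 and 4.27 FPKM in JNK_KO cells. Mapk9 was at 29.7 and 24.3 FPKM in JNK_WT and 12.6 and 8.66 FPKM in JNK_KO cells. Both were lower in both JNK_KO lines without being absent, but the RNA level of a gene can include exons that were not floxed. In the paper, immunoblots of JNK_KO tumor cells detected no JNK protein. Trp53 was at 1.55 and 4.15 FPKM in JNK_WT and 5.72 and 4.28 FPKM in JNK_KO cells, and FPKM per gene does not show whether its floxed exons were lost. The epithelial genes Epcam and Krt8 were above 100 FPKM in every library.

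To ask whether JNK loss changed this pathway in tumor cells, each gene was read from a fit over all 12998 genes that had at least 1 FPKM in at least 2 libraries. All 10 genes passed that filter, but Il6 through its JNK_KO libraries alone, so that it had to differ, and Il11, Il6ra and Lifr through 3 libraries. Counts over the 10 genes are given for description. Calls needed an adjusted p-value below 0.05 and a log2 difference beyond 0.75 in either direction, the study's thresholds, and differences are on the log2(FPKM + 1) scale, which understates changes of low genes; errors given with ± are standard errors unless named otherwise. By limma 0 of the 10 genes were called, beside 0.00% of all tested genes, and 3 (Il6, Il11 and Il6st) had an unadjusted p-value under 0.05, all of them higher in JNK_KO cells, against 4.75% of tested genes in that direction and 7.63% in either. Both lines without JNK exceeded both controls for 5 genes (Il6, Il11, Il6ra, Il6st and Osmr), against 18.3% of tested genes, and 0 lay wholly below, against 16.7% (35.0% in either direction). A log2 difference above 0.75 was seen for 8 of the 10 genes, against 9.25%, and a difference below -0.75 for 0, against 6.43%. The median difference of the 10 genes was 1.04, beside 0.013 over all tested genes. Both values depended on JNK_WT replicate 1. Without it 4 of the 10 genes had a difference above 0.75, against 11.5% of tested genes, and the median was 0.33. Without JNK_WT replicate 2 the median was 1.80. With 2 lines a group, a gene without a call is not shown to be alike in the genotypes.

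**Figure D1:**
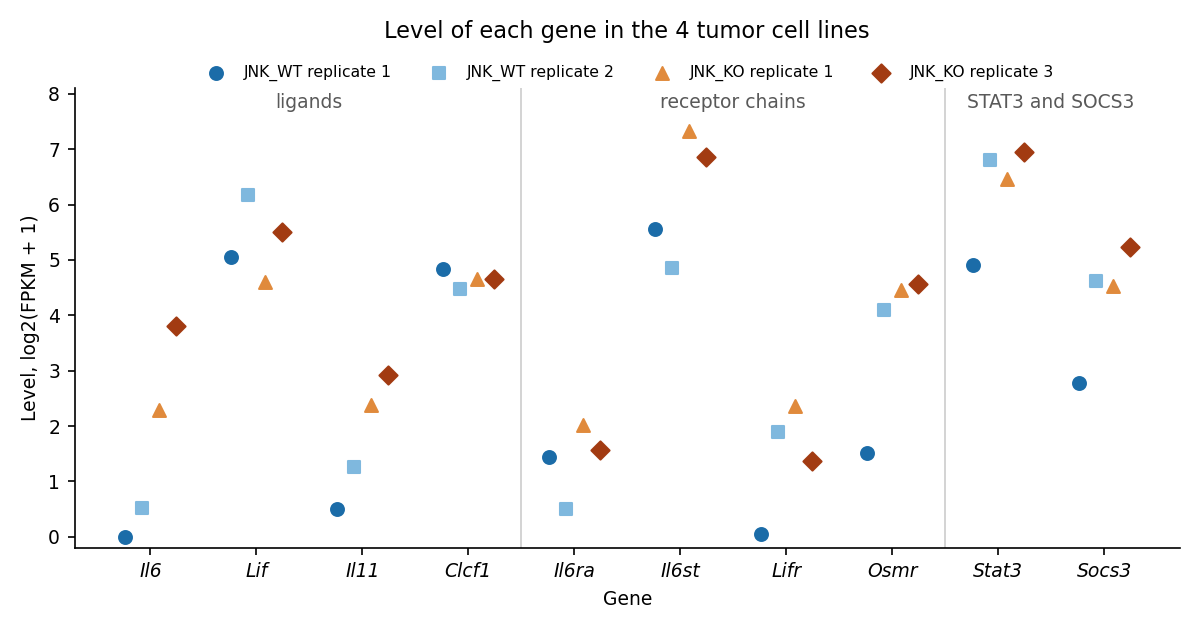
Level of each gene as log2(FPKM + 1) on the vertical axis, with 1 point per library (blue for JNK_WT, orange and brown for JNK_KO). For Il6, Il11, Il6ra, Il6st and Osmr both JNK_KO points lie above both JNK_WT points, and for Lifr, Osmr, Stat3 and Socs3 JNK_WT replicate 1 lies below the other 3.

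Among the ligands, Il6 and Il11 were higher in both JNK_KO lines, while Lif and Clcf1 were not. Il6 (chr5:30013114-30019981, mm10, plus strand), the founding member of the family, was at 0 FPKM in JNK_WT replicate 1, 0.436 in JNK_WT replicate 2, 3.86 in JNK_KO replicate 1 and 13.0 in JNK_KO replicate 3. The groups did not overlap, and JNK_KO replicate 3 stood well above JNK_KO replicate 1. JNK_KO minus JNK_WT, the log2 difference of Il6 was 2.78 (SE 0.61, 95% interval 1.15 to 4.42, limma adjusted p-value 0.378). Of 38713 usable rows, each library listed at 0 between 11 and 16 genes that were at 10 FPKM or more in all 3 others. Il6 was not such a gene, being low in the other JNK_WT line too. Whether its 0 is a failed estimate was not tested, and no fold against it is given.

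Il11 (chr7:4772373-4782859, minus strand), which encodes a cytokine of stromal and bone cells, was at 0.423 FPKM in JNK_WT replicate 1, 1.40 in JNK_WT replicate 2, 4.21 in JNK_KO replicate 1 and 6.61 in JNK_KO replicate 3. The groups did not overlap and the gap between them on the log2 scale, 1.12, was wider than the distance between lines of the same genotype (0.75 and 0.55). For Il11 the log2 difference came to 1.77 (SE 0.43, 95% interval 0.63 to 2.91, limma adjusted p-value 0.426). Fits without 1 library, which cannot reverse a difference between groups that do not overlap, gave 2.02 to 3.55 for Il6 and 1.39 to 2.14 for Il11.

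Lif (chr11:4257557-4272514, plus strand), the ligand of mammary involution, was with Clcf1 the most abundant ligand gene among the 10. It was at 32.1 FPKM in JNK_WT replicate 1, 71.3 in JNK_WT replicate 2, 23.3 in JNK_KO replicate 1 and 44.3 in JNK_KO replicate 3. The highest and the lowest library belonged to different genotypes, and the groups overlapped. On the log2 scale Lif differed by -0.56 (SE 0.53, 95% interval -1.97 to 0.85, limma adjusted p-value 0.970). Without JNK_WT replicate 2 the difference was 0.0012. Within a library Lif exceeded Il6 by 164 times in JNK_WT replicate 2, by 6.03 times in JNK_KO replicate 1 and by 3.41 times in JNK_KO replicate 3.

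Clcf1 (chr19:4214238-4223490, plus strand) encodes cardiotrophin-like cytokine factor 1, and it varied least of the 10 genes. It was at 27.7 FPKM in JNK_WT replicate 1, 21.2 in JNK_WT replicate 2, 24.1 in JNK_KO replicate 1 and 24.3 in JNK_KO replicate 3, so that all lines lay within a 1.30-fold range. JNK_KO minus JNK_WT, the log2 difference of Clcf1 was -0.0046 (SE 0.26, 95% interval -0.70 to 0.69, limma adjusted p-value 0.999). A second row spelled CLCF1 was listed at 0 in all libraries and was not used. Cntfr, which encodes the ciliary neurotrophic factor receptor chain that CLCF1 also uses, was at 3.06 and 1.42 FPKM in JNK_WT and 2.05 and 0.394 FPKM in JNK_KO cells, with overlapping groups and a difference of -0.60 ± 0.54.

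Other ligand genes of the family were measured too. Osm, which encodes oncostatin M, and Il31 were listed at 0 in all 4 libraries. Ctf2, Il27 and Ebi3 were under 1 FPKM throughout and were not tested. Ctf1, the gene of cardiotrophin 1, was at 11.1 and 14.2 FPKM in JNK_WT and 7.58 and 7.95 FPKM in JNK_KO cells, and both JNK_KO lines lay below both JNK_WT lines (log2 difference -0.63 ± 0.29, limma adjusted p-value 0.755). Cntf, the gene of ciliary neurotrophic factor, was at 1.65 and 1.44 FPKM in JNK_WT and 2.50 and 1.73 FPKM in JNK_KO cells, and both JNK_KO lines lay slightly above both JNK_WT lines (log2 difference 0.28 ± 0.32). Of the 8 ligand genes in this list 3 passed the filter and 0 were called by limma, with 0 at an unadjusted p-value under 0.05. Their median log2 difference was -0.63.

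Among the receptor chains, Il6st was the most abundant in every library and had the widest gap between genotypes. Il6st (chr13:112464070-112510086, plus strand), the gene of the shared chain gp130, was at 46.3 FPKM in JNK_WT replicate 1, 27.9 in JNK_WT replicate 2, 160.2 in JNK_KO replicate 1 and 115 in JNK_KO replicate 3. The groups were separated by a gap of 1.29 on the log2 scale against distances of 0.71 and 0.48 within genotypes. This is a log2 difference of 1.89 between genotypes (SE 0.35, 95% interval 0.94 to 2.83, limma adjusted p-value 0.299). Mean levels were 37.1 FPKM for JNK_WT (SD 13.0, n = 2) against 137 FPKM for JNK_KO (SD 32.0, n = 2), a ratio of 3.71. Fits without 1 library gave differences between 1.53 and 2.24.

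The chain that binds IL-6 was expressed at a far lower level. Il6ra (chr3:89864059-89913196, minus strand), the gene of that chain, was at 1.70 FPKM in JNK_WT replicate 1, 0.423 in JNK_WT replicate 2, 3.05 in JNK_KO replicate 1 and 1.95 in JNK_KO replicate 3. The groups did not overlap, by a gap of only 0.13 between JNK_WT replicate 1 and JNK_KO replicate 3, and this order was lost under quantile normalization. For Il6ra the log2 difference came to 0.82 (SE 0.45, 95% interval -0.38 to 2.02, limma adjusted p-value 0.833). Il6st exceeded Il6ra by 27.2 to 66.0 times within a library.

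Il11ra1, the gene of the IL-11 receptor chain, was at 2.41 and 3.80 FPKM in JNK_WT and 7.41 and 7.89 FPKM in JNK_KO cells. Both JNK_KO lines lay above both JNK_WT lines, by 1.10 ± 0.33 on the log2 scale (limma adjusted p-value 0.519), but mice carry a near-identical copy, Il11ra2, and reads could have been divided between them. The ligand Il11 and the chains Il11ra1 and Il6st were each higher in both JNK_KO lines, as were 18.3% of tested genes, and none of them was called. Among the other ligand and receptor genes, Il6, Il6ra, Osmr and Cntf also lay higher in both. Lif, Clcf1, Lifr and Cntfr overlapped between genotypes, and Ctf1 lay lower in both JNK_KO lines. Il27ra and Il31ra were under 1 FPKM in every library and were not tested.

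Osmr and Lifr lie close together on chromosome 15, and both were lowest in JNK_WT replicate 1. Osmr (chr15:6813577-6874969, minus strand), the gene of the oncostatin M receptor, was at 1.85 FPKM in JNK_WT replicate 1, 16.2 in JNK_WT replicate 2, 20.9 in JNK_KO replicate 1 and 22.5 in JNK_KO replicate 3. A single JNK_WT line was low while the other lay close to the JNK_KO lines, and although the groups did not overlap, the gap of 0.36 was far smaller than the distance of 2.59 between the JNK_WT lines. On the log2 scale Osmr differed by 1.70 (SE 0.90, 95% interval -0.71 to 4.11, limma adjusted p-value 0.827). Without JNK_WT replicate 1 the difference was 0.41, and without JNK_WT replicate 2 it was 2.99.

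Lifr (chr15:7090614-7197489, plus strand), the gene of the LIF receptor, was at 0.0397 FPKM in JNK_WT replicate 1, 2.71 in JNK_WT replicate 2, 4.12 in JNK_KO replicate 1 and 1.57 in JNK_KO replicate 3. It was close to 0 in JNK_WT replicate 1 and between 1.57 and 4.12 FPKM in the other 3 lines, and the groups overlapped. JNK_KO minus JNK_WT, the log2 difference of Lifr was 0.89 (SE 0.76, 95% interval -1.13 to 2.90, limma adjusted p-value 0.950). Without JNK_WT replicate 1 the difference turned to -0.033. In that line Osmr exceeded Lifr by 46.6 times, against 5.09 to 14.3 times in the other 3.

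For Stat3 and Socs3 the same JNK_WT line was low, and the genotypes overlapped. Stat3 (chr11:100885098-100939540, minus strand) was at 29.1 FPKM in JNK_WT replicate 1, 111 in JNK_WT replicate 2, 86.6 in JNK_KO replicate 1 and 122 in JNK_KO replicate 3. JNK_WT replicate 1 was the lowest library, JNK_WT replicate 2 lay between the JNK_KO lines, and the groups overlapped. This is a log2 difference of 0.84 between genotypes (SE 0.69, 95% interval -0.99 to 2.67, limma adjusted p-value 0.942). Without JNK_WT replicate 1 the difference was -0.11, and without JNK_WT replicate 2 it was 1.79.

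Socs3 (chr11:117966079-117970047, minus strand) was at 5.82 FPKM in JNK_WT replicate 1, 23.6 in JNK_WT replicate 2, 22.2 in JNK_KO replicate 1 and 36.5 in JNK_KO replicate 3. Again JNK_WT replicate 1 was lowest, and JNK_WT replicate 2 lay between the JNK_KO lines. For Socs3 the log2 difference came to 1.19 (SE 0.70, 95% interval -0.68 to 3.06, limma adjusted p-value 0.862). Without JNK_WT replicate 1 the difference was 0.26. Stat3 exceeded Socs3 by 5.0 and 4.72 times in the JNK_WT lines and by 3.90 and 3.35 times in the JNK_KO lines.

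**Figure D2:**
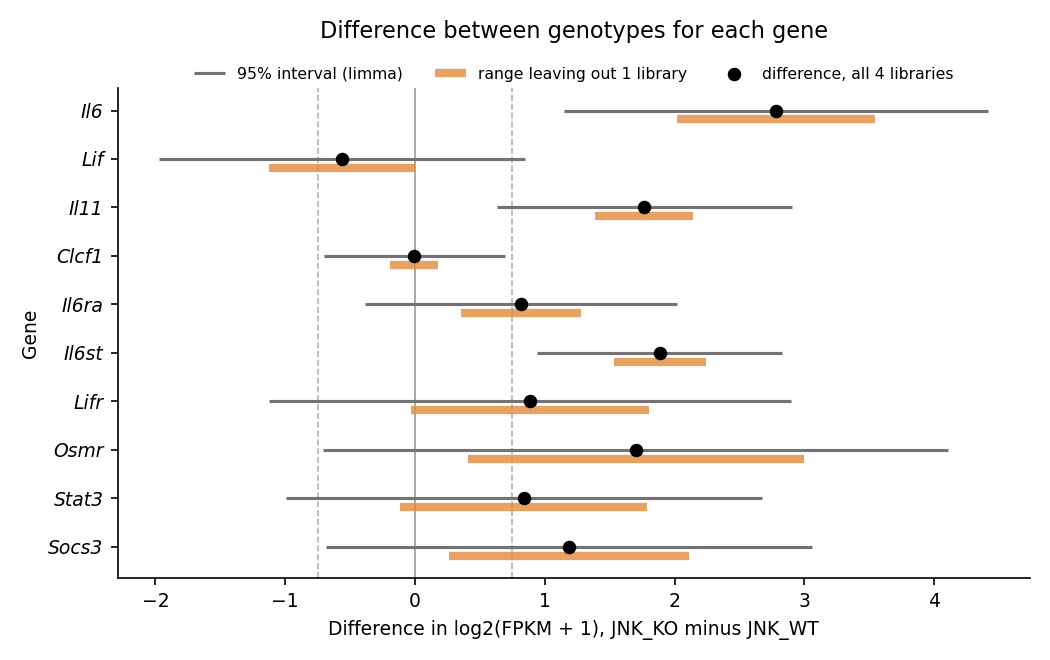
Difference in log2(FPKM + 1), JNK_KO minus JNK_WT, for each gene (points), with the limma 95% interval (gray) and the range of the 4 fits that each left out 1 library (orange bars); dashed lines mark differences of -0.75 and 0.75. The intervals of Il6, Il11 and Il6st lie above 0, and the orange bars of Lif, Clcf1, Lifr and Stat3 reach across 0.

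Averaged over the 4 libraries, levels ran in the order Stat3 (87.3 FPKM), Il6st (87.3), Lif (42.8), Clcf1 (24.3), Socs3 (22.0), Osmr (15.4), Il6 (4.33), Il11 (3.16), Lifr (2.11) and Il6ra (1.78). Osmr was in position 6 in every library, while each of the other genes changed places with a neighbor in at least 1 library. Stat3 and Il6st took the top positions in both JNK_KO libraries, but Lif stood above Il6st in JNK_WT replicate 2 and above Stat3 in JNK_WT replicate 1.

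The 10 genes fell into different patterns across the lines. JNK_WT replicate 1 was the lowest library for 6 of the 10 genes (Il6, Il11, Lifr, Osmr, Stat3 and Socs3), against 29.1% of all tested genes, and JNK_KO replicate 3 was the highest for 5, against 21.7%. Il6, Il11 and Il6st were below the mean of the 4 libraries in both JNK_WT lines and above it in both JNK_KO lines. Osmr, Stat3 and Socs3 were below it in JNK_WT replicate 1 alone. The median absolute log2 distance over the 10 genes came to 1.02 within JNK_WT and to 0.52 within JNK_KO, beside 0.43 and 0.33 over all tested genes. From JNK_WT replicate 2 to the JNK_KO lines it was 0.79 and 0.64, and from JNK_WT replicate 1 it was 1.77 and 1.67.

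**Figure D3:**
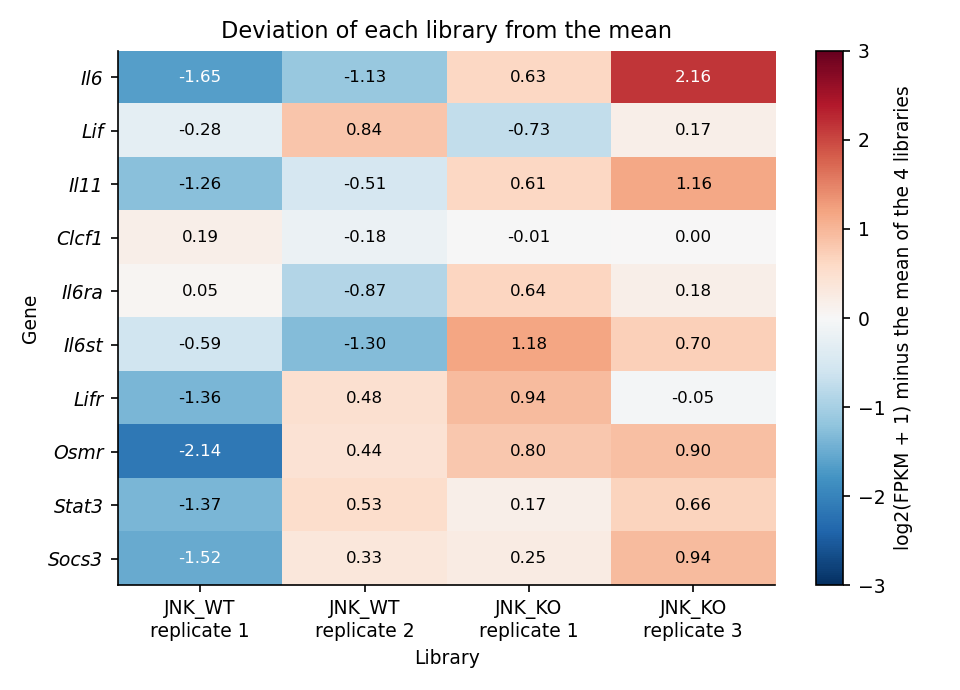
Deviation of each library from the mean of the 4 libraries in log2(FPKM + 1), by gene (rows) and library (columns), red above and blue below the mean. Il6, Il11 and Il6st are blue in both JNK_WT columns and red in both JNK_KO columns, while Osmr, Stat3 and Socs3 are blue in the first column only.

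For the 3 genes with the widest range over the lines, the tested genes with the most similar profile were sought by the Euclidean distance between log2(FPKM + 1) values centered on their mean over the 4 libraries. Nearest to Il6 were Ankrd1 (0.16), Ptx3 (0.46) and Vnn3 (0.48), where the median distance over tested genes was 3.06. Nearest to Osmr were Clip4 (0.21), Fst (0.23) and Ssbp4 (0.24), with a median of 2.56, and nearest to Il6st were Birc2 (0.029), Gbp7 (0.069) and Acsl1 (0.13), with a median of 2.07. With 4 libraries such likeness is a description, and 34, 70 and 280 genes lay within a distance of 1 of Il6, Osmr and Il6st.

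Other genes of the pathway were described from lists. Outside the 10 genes the lists held 66 genes, of which 56 were tested and 0 were called by limma, with 11 higher and 1 lower at an unadjusted p-value under 0.05 (background 4.75% and 2.89%); 3 of those higher passed the filter through the JNK_KO libraries alone. Among the kinases and other STATs, 3 of 6 lay higher in both JNK_KO lines, Jak1 and Jak2 among them, against 18.3% of tested genes. The median log2 difference of this list was 0.49. Jak1, the main kinase of gp130, was at 20.6 and 21.4 FPKM in JNK_WT and 35.0 and 35.0 FPKM in JNK_KO cells, a log2 difference of 0.71 ± 0.23 (limma adjusted p-value 0.553). Jak2 was at 17.3 and 8.84 FPKM in JNK_WT and 67.9 and 21.6 FPKM in JNK_KO cells, with a difference of 1.56 ± 0.66. Stat5b, the STAT of prolactin and growth hormone signaling, had a difference of 0.26 ± 0.43 with overlapping groups.

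Among 8 feedback and phosphatase genes, 2 lay higher in both JNK_KO lines (Socs1 and Pias3), against 18.3% of tested genes. In both lines 1 lay lower (Ptpn6), against 16.7%, and the median log2 difference was 0.18. Socs1, a feedback inhibitor of JAK kinases, was at 1.60 and 1.74 FPKM in JNK_WT and 5.24 and 3.64 FPKM in JNK_KO cells (difference 1.01 ± 0.33). Ptpn6, the gene of the phosphatase SHP-1, was at 155 and 42.6 FPKM in JNK_WT and 27.7 and 26.7 FPKM in JNK_KO cells (difference -1.55 ± 0.65), and JNK_WT replicate 1 stood far above the other lines. The differences of Pias3, an inhibitor of STAT3, and Ptpn1, a phosphatase, were 0.52 ± 0.29 and 0.35 ± 0.34.

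Of 23 genes listed as targets of STAT3, 22 were tested. By limma 0 were called, and 4 had an unadjusted p-value under 0.05, all higher (Saa1, Saa2, Saa3 and Icam1), against 4.75% of tested genes. In both JNK_KO lines 7 lay higher, against 18.3% of tested genes. Saa1, Saa2 and Saa3 passed the filter through the JNK_KO libraries alone and so had to be higher there. This fixed 3 of these 7, and for 3 of the 4 it fixed the direction but not the p-value. The median log2 difference was 0.38. It depended on single lines, at 0.14 without JNK_WT replicate 1, 1.17 without JNK_WT replicate 2 and 0.93 without JNK_KO replicate 1. JNK_WT replicate 1 was the lowest library for 16 of the 22 genes, against 29.1% of all tested genes.

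Among these targets too, some separated the genotypes and some separated JNK_WT replicate 1. Saa3, an acute-phase serum amyloid gene, was at 0.0490 and 0.748 FPKM in JNK_WT and 38.5 and 12.3 FPKM in JNK_KO cells, and Icam1, an adhesion molecule gene, was at 0.770 and 1.56 FPKM in JNK_WT and 32.3 and 13.6 FPKM in JNK_KO cells. Both JNK_KO lines lay far above both JNK_WT lines for these genes, with log2 differences of 4.08 ± 0.65 and 3.37 ± 0.52 and limma adjusted p-values of 0.234 and 0.231. Hp, the gene of haptoglobin, was at 0.909 and 165 FPKM in JNK_WT and 168 and 390.4 FPKM in JNK_KO cells, and Cebpd, a transcription factor gene of early involution, was at 0.915 and 68.3 FPKM in JNK_WT and 55.3 and 134 FPKM in JNK_KO cells. For both it was JNK_WT replicate 1 that stood apart, near 1 FPKM, and the differences of 3.85 ± 2.2 and 2.92 ± 1.79 had wide errors. Saa1 and Saa2, which are close paralogs and could trade reads, were each at 0 or under 0.1 FPKM in JNK_WT cells and between 1.10 and 2.17 FPKM in JNK_KO cells.

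Among 7 genes linked to STAT3 in involution, 6 were tested and 0 were called by limma. At an unadjusted limma p-value under 0.05, 1 was higher (Ctsb) and 1 lower (Ctsl), against 4.75% and 2.89% of tested genes. Ctsb and Ctsl encode lysosomal cathepsins. Ctsb was at 53.6 and 73.6 FPKM in JNK_WT and 97.6 and 119.9 FPKM in JNK_KO cells, and both JNK_KO lines were higher (difference 0.78 ± 0.27, limma adjusted p-value 0.625). Ctsl was at 568 and 642 FPKM in JNK_WT and 298 and 363 FPKM in JNK_KO cells, and both JNK_KO lines were lower (difference -0.87 ± 0.25, limma adjusted p-value 0.488). Bcl3, an NF-kB cofactor gene, was at 8.41 and 29.3 FPKM in JNK_WT and 48.9 and 35.0 FPKM in JNK_KO cells (difference 1.33 ± 0.63). The median of this list was 0.65, and it was 0.23 without JNK_KO replicate 3 and 1.07 without JNK_KO replicate 1.

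**Figure D4:**
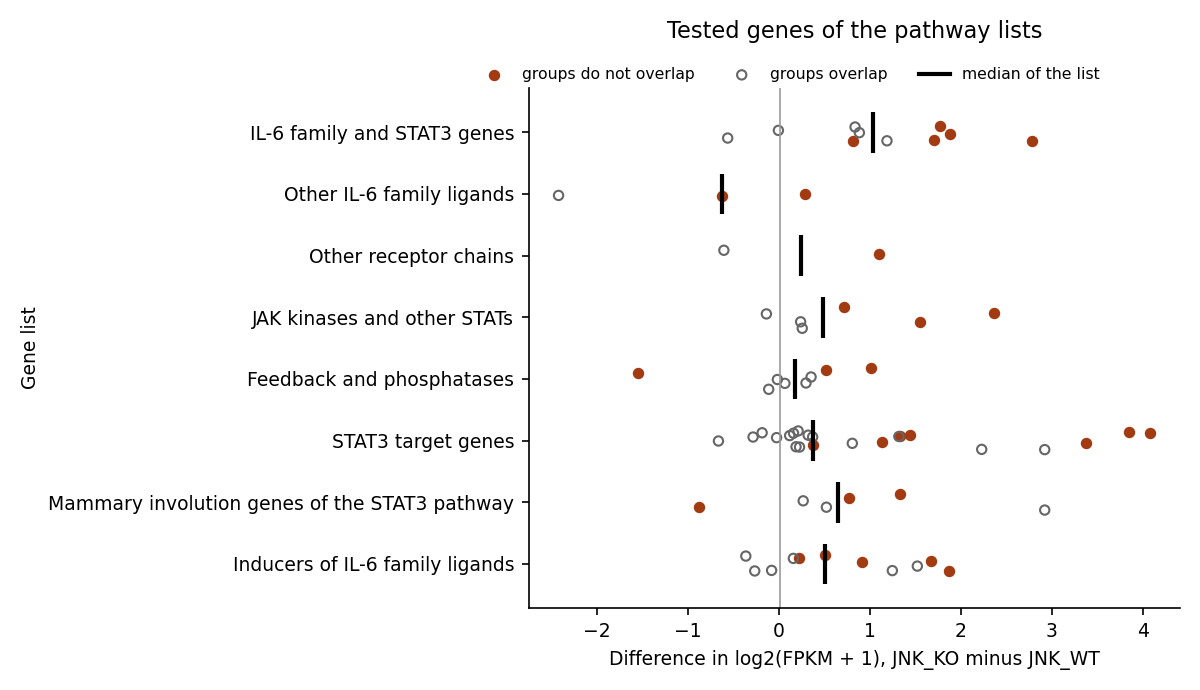
Difference in log2(FPKM + 1), JNK_KO minus JNK_WT, for each tested gene of each list (filled, groups that do not overlap; open, groups that overlap), with the list's median (black bar) and the median of all tested genes (gray line). The members' median is 1.04, and the other pathway lists drawn have medians from -0.63 to 0.65.

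Markers of other cell types were measured beside these results, since fibroblasts also express Il6, Il11 and Osmr. The summed level of 10 fibroblast markers was 13.3 and 4.36 FPKM in the JNK_WT lines and 109 and 204 FPKM in the JNK_KO lines. Of the 5 that were tested, 3 lay higher in both JNK_KO lines (Dcn, Pdgfra and Pdgfrb), against 18.3% of tested genes. Dcn, at 79.7 and 162 FPKM, made up most of the JNK_KO sums. These 3 genes passed the filter through the JNK_KO libraries alone, so their order was set by it. Col1a2 was at 10.3 and 0.374 FPKM in JNK_WT and 0.698 and 2.56 FPKM in JNK_KO cells. Postn was at 1.32 and 2.58 FPKM in JNK_WT and 0.728 and 25.6 FPKM in JNK_KO cells. Both Col1a2 and Postn overlapped between genotypes. Col1a1 and Fap were under 1 FPKM in every library, and Lum was listed at 0 in 3 libraries and at 0.00840 FPKM in JNK_KO replicate 3. Thy1, not tested, was at 0.0861 and 0.0722 FPKM in JNK_WT and 0.540 and 1.19 FPKM in JNK_KO cells, without overlap. Col3a1, also not tested, was at 0.0234 and 0.141 FPKM in JNK_WT and 0.113 and 1.33 FPKM in JNK_KO cells, with overlap. The part of these markers in the differences of Il6, Il11 and Il6st was not tested. In such bulk samples a change in the share of cells cannot be told apart from a change in RNA per cell.

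The 8 epithelial markers summed to 4771 and 3553 FPKM in the JNK_WT lines and 1651 and 3185 FPKM in the JNK_KO lines. Of these 8, 3 lay lower in both JNK_KO lines (Epcam, Krt7 and Krt8), against 16.7% of tested genes. All 8 had a negative log2 difference, with a median of -0.73, and 0 were called by limma. A difference below -0.75 was seen for 4 of them, against 6.43% of tested genes. Basal and myoepithelial markers (6 genes) summed to 25.8 and 732 FPKM in JNK_WT and 37.8 and 375 FPKM in JNK_KO lines. Krt14, at 443 FPKM in JNK_WT replicate 2 and 313 FPKM in JNK_KO replicate 3, made up most of the 2 higher sums. The sum was lowest in JNK_WT replicate 1, the line in which Osmr, Stat3 and Socs3 were lowest. Of the 4 tested markers of this list, 2 were lowest in that line, while Acta2 and Krt17 were lowest in JNK_KO replicate 1. Acta2 was at 7.36 and 3.19 FPKM in JNK_WT and 1.70 and 29.0 FPKM in JNK_KO cells. JNK_KO replicate 1 had the next lowest sum, with Osmr at 20.9, Stat3 at 86.6 and Socs3 at 22.2 FPKM. A link between these markers and the 3 genes was not tested. The leukocyte list had 8 genes, 7 with a row. Cd14 was at 11.9 and 233 FPKM in JNK_WT and 125 and 140 FPKM in JNK_KO cells. Cd68 was at 19.95 and 3.15 FPKM in JNK_WT and 2.65 and 8.43 FPKM in JNK_KO cells. Csf1r was at 1.82 and 0.448 FPKM in JNK_WT and 0.312 and 1.23 FPKM in JNK_KO cells. Cd14, Cd68 and Csf1r overlapped between genotypes. The defining leukocyte gene Ptprc was at most 0.0134 FPKM, and Cd3e, Itgam and Cd79a were under 1 FPKM in every library. Whether leukocytes were present was not tested. The 5 endothelial markers summed to at most 1.01 FPKM and the 4 adipocyte markers to at most 0.612 FPKM in a library.

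For the local context, each gene was set beside the tested genes that start within 1 Mb of its own start. The 19 neighbors of Il6 had a median log2 difference of -0.11, the 31 neighbors of Il11 of -0.068 and the 7 neighbors of Il6st of 0.16, against 2.78, 1.77 and 1.89 for the genes themselves. The 52 neighbors of Stat3 were lower in JNK_KO cells by median (-0.32), opposite in sign to Stat3. For Osmr and Lifr only 3 neighbors each were tested. In JNK_WT replicate 1 the neighbors of Stat3 and Socs3 deviated from the mean of the 4 libraries by medians of -0.20 and -0.49, and Stat3 and Socs3 themselves by -1.37 and -1.52.

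**Figure D5:**
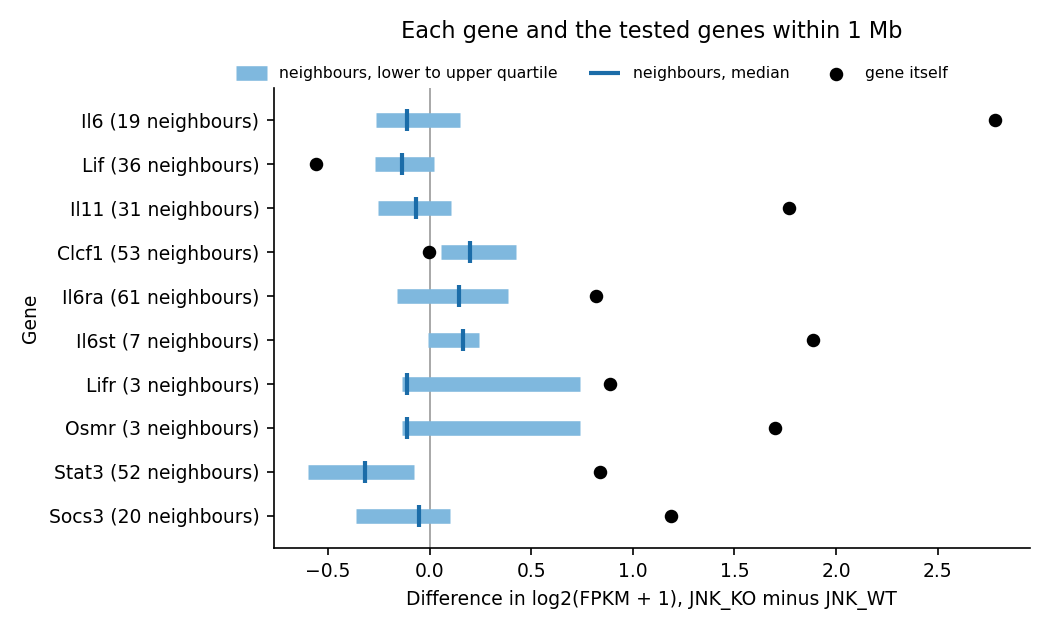
Difference in log2(FPKM + 1), JNK_KO minus JNK_WT, of each gene (points) and of the tested genes that start within 1 Mb of it (blue line, median; pale bar, lower to upper quartile). The points of Il6, Il11, Il6ra, Il6st, Lifr, Osmr, Stat3 and Socs3 lie to the right of the bars of their neighbors.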

How the data were processed

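RNA was sequenced from 4 tumor cell lines (JNK_WT replicates 1 and 2, JNK_KO replicates 1 and 3), grouped by the sample titles. The authors trimmed single-end reads with Trimmomatic, sampled them with seqtk to a similar number per library, aligned them to mm10 (GRCm38) with Bowtie2 and TopHat2 (2.0.14) and quantified genes with Cufflinks (2.2.1). The deposited values are FPKM per gene and library, without pooling, and the gene annotation and strandedness are not given in the sources used here. Cufflinks divides reads among overlapping and paralogous transcripts by an estimate, so values of such genes are uncertain.

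Of 38741 rows, 27 with symbols turned into dates and 1 without values were dropped. Genes at 1 FPKM or more in at least 2 of 4 libraries (12998) were tested on log2(FPKM + 1) with limma 3.58.1 (eBayes with an intensity trend, two-sided, Benjamini-Hochberg adjustment) in R 4.3.3. The fitting script was tested on simulated data. The study's Cuffdiff test needs alignments and was not run. Positions came from GENCODE M21, matched by symbol for 93.6% of tested genes, and promoter sequences from RefSeq (GRCm38.p6). Depth was read from the most common ratio of low FPKM values between libraries, so no counting interval is given, and 2 libraries against 2 limit all precision. Genes named were the 10 members, the targeted genes, all other ligand and receptor genes, the 4 widest differences of each other list, and the 3 nearest profiles of the 3 most variable members. Other genes were named after their values were seen, and some genes under the rule are not reported here. Members and lists were chosen with earlier results of these data known. Other pseudocounts, filters, scalings, variance models and fits without each library were alternatives. Figures were drawn with matplotlib 3.10.9.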

Additional observations from a re-analysis of the deposited data

How the results depend on the processing

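No paired analysis was possible because the genotypes share only replicate number 1, which the labels tie to no common litter or day. No member was called under any alternative, and outside the fits that left out a library none changed direction. Without each library in turn, the log2 differences were -1.12 to 0.0012 for Lif, -0.19 to 0.18 for Clcf1, -0.033 to 1.80 for Lifr and -0.11 to 1.79 for Stat3, each of which changed sign. The count of genes called over all genes, 0 (992 at an unadjusted p-value under 0.05), became 10 and 14 with pseudocounts of 0.1 and 0.5, 15 with FPKM scaled to a common sum, 14 without the intensity trend and 25 at an adjusted p-value threshold of 0.1, and the cause was not tested.

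The number of members higher in both JNK_KO lines, 5, was 2 of the 6 left by a filter at a mean of 5 FPKM, 4 under quantile normalization, where Il6ra dropped out, and 6 to 8 without 1 library, where a lone line is easier to exceed and the background rose from 18.3% to between 31.9% and 37.5%. The median of the members, 1.04, was 1.65 with a pseudocount of 0.1 and 0.33 to 1.80 without 1 library. Their number above 0.75, 8, was 6 under quantile normalization, 4 to 7 without 1 library and 4 of the 6 left by that filter. The share of tested genes above 0.75, 9.25%, was 8.12% under quantile normalization, 11.3% to 13.9% without 1 library and 8.42% with that filter. These settings for the members were added once the values were known. The share of tested genes without overlap in either direction, 35.0%, was 20.9% without a filter and 61.0% to 72.1% without 1 library. List medians moved by more than the spread between lines for other ligands (-0.012 without a filter and -1.52 with the filter at 5), other receptor chains (1.10) and inducers of the ligands (0.23), where the filter changes which genes are counted. Without 1 library they ranged from -0.79 to -0.34 (other ligands), -0.015 to 0.51 (receptor chains), 0.28 to 0.75 (kinases and STATs), -0.15 to 0.36 (feedback), 0.14 to 1.17 (targets), 0.23 to 1.07 (involution) and 0.21 to 0.86 (inducers).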

Other observations

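Genes known to induce ligands of the IL-6 family were also measured. Of 12 listed, 11 were tested and 0 were called by limma. At an unadjusted limma p-value under 0.05, 2 were higher (Tgfb2 and Nfkbia), against 4.75% of tested genes. In both JNK_KO lines 5 lay higher, against 18.3% of tested genes. Tgfb2, the gene of a transforming growth factor, was at 1.19 and 0.828 FPKM in JNK_WT and 8.45 and 4.68 FPKM in JNK_KO cells, or 1.87 ± 0.39 on the log2 scale (± standard error, limma adjusted p-value 0.347). Il1r1, the interleukin-1 receptor gene, was at 0.511 and 5.62 FPKM in JNK_WT and 10.7 and 7.70 FPKM in JNK_KO cells and did not overlap between genotypes (difference 1.67 ± 0.78). Its ligand gene Il1a was at 0.444 and 8.25 FPKM in JNK_WT and 6.66 and 13.4 FPKM in JNK_KO cells and Tnf at 0.283 and 4.43 FPKM in JNK_WT and 7.47 and 3.64 FPKM in JNK_KO cells, both lowest in JNK_WT replicate 1 and overlapping between genotypes. The NF-kB genes Rela and Nfkb1 had differences of 0.16 ± 0.24 and 0.23 ± 0.22, and the median of the list was 0.51.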
